A study of Mus musculus with 30 samples.

Results

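The regions described here are peaks of histone H3 lysine 4 monomethylation (H3K4me1) that were listed in E2A-/- mouse pre-pro-B cells carrying bHLH-ER and overlapped, by even 1 base, no H3K4me1 peak listed in the same cells carrying E47-ER. A peak of the bHLH-ER list entered the set when it met neither the E47-ER list at 6 h nor the E47-ER list at 1 h of tamoxifen, and 6317 of 17146 peaks (36.8%) did so. They are called bHLH-ER-only regions below. The regions were chosen by measured values, the positions of peaks in these 3 lists, so nothing about those lists is tested here. Another 5736 bHLH-ER peaks overlapped a 6 h E47-ER peak and are called shared peaks, and the remaining 5093 overlapped a 1 h E47-ER peak only.

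The study mapped histone marks and transcription factors by chromatin immunoprecipitation sequencing (ChIP-seq) and gene expression by microarray in cells of the early B lineage. Of its 30 samples, 23 were ChIP-seq libraries, 1 was a mock library of wild-type lymphoid cells made without an antibody, and 6 were array samples. C57BL/6 is the strain given for all of them. Pre-pro-B cells of both genotypes, E2A-/- and EBF-/-, grew on S17 stroma in medium that held IL7, SCF and FLT3 ligand. RAG1-/- pro-B cells were B220+ cells of bone marrow, and their expansion lasted 10 d in IL-7 plus SCF, so their genotype and their culture cannot be told apart. A12 is an E2A-/- line of double-positive T cells. bHLH-ER is an E2A protein without its transactivation domains, joined to the ligand-binding part of the oestrogen receptor, and E47-ER is the full-length E47 form of E2A joined in the same way. Both were delivered by a retrovirus that also encoded human CD25. Cells were cultured for 21 h, treated with 1 µM tamoxifen for 1 or 6 h and enriched magnetically on human CD25. bHLH-ER was profiled at 6 h only. Each ChIP condition had 1 library, so no ChIP difference has a replicate check and none is given a p-value. The 95% Wilson intervals below cover counting error only, and the read depth of the ChIP libraries is unknown.

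E2A, encoded by Tcf3, is a basic helix-loop-helix (bHLH) factor that binds the E-box, CANNTG, as a dimer and is needed for B cell development. Its bHLH domain contacts DNA, and its transactivation domains recruit coactivators, among them histone acetyltransferases. H3K4me1 marks enhancers and the flanks of promoters, H3K4me2 marks both, H3K4me3 marks active promoters, and H3 acetylation marks active elements. Id proteins bind E proteins through the helix-loop-helix part and keep them off DNA, and Notch signalling directs lymphoid progenitors to the T lineage.

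The regions themselves are given by position in mouse build mm8, and no genome of that build was used here. To show the E-box in context, promoters of 3 nearby genes are printed from RefSeq (GRCm38.p6), from 250 bases before to 50 bases after the gene start. They are Spns1, nearest to the region with the highest score, and Notch1 and Id3, the Notch receptor and the Id protein with an E47-ER-bound region. Letters are 5′ to 3′ on the gene's strand, and capitals mark CANNTG, which is its own reverse complement and was thus searched on both strands at once. The Spns1 promoter (chr7:126377885-126378184, minus strand), the Notch1 promoter (chr2:26503773-26504072, minus strand) and the Id3 promoter (chr4:136143572-136143871, plus strand) read as follows.
Spns1: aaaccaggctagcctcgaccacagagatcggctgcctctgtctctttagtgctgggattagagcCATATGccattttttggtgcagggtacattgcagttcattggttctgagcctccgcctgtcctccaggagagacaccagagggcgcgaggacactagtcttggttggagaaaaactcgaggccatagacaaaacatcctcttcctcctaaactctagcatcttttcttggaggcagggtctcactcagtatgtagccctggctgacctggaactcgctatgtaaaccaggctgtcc
Notch1: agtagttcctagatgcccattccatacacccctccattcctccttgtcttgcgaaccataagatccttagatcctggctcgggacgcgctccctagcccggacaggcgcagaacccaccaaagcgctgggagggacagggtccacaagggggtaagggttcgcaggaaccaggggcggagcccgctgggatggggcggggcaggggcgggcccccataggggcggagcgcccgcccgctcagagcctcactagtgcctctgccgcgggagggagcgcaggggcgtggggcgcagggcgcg
Id3: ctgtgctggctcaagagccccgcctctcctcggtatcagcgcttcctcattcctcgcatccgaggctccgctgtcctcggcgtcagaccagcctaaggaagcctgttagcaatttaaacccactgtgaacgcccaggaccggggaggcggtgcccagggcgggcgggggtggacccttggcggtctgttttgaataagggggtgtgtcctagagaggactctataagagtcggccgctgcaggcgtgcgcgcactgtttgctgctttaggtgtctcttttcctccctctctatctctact
The Spns1 window held 1 E-box, with the letters CATATG, at position 65 counted from its 5′ end, and the Notch1 and Id3 windows held 0. The E-box forms CAGCTG and, on either strand, CAGGTG were in none of them. Promoters were found for 3075 of 3877 genes nearest to a bHLH-ER-only region (79.3%). CANNTG was in 64.6% of these promoters, in 66.3% of promoters of genes near shared peaks and in 72.1% of all 27025 promoters of the table. In the same order, CAGCTG was in 15.9%, 15.7% and 16.1%, and at least one of both forms in 30.7%, 31.9% and 32.6%. Genes near peaks needed an array probe with a position, and the set of all promoters was not limited in this way. Both forms are also counted in the general E-box. A match describes letters in the window and shows no binding.

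The bHLH-ER list was longer than the 6 h E47-ER list (11169 peaks) and about as long as the 1 h list (18155 peaks), so the set was examined by score. The score is the authors' own whole number per peak, on an unstated scale. It is used only to rank peaks within a list. bHLH-ER-only regions had a median score of 19, shared peaks 25 and peaks shared at 1 h only 20. Among bHLH-ER peaks that scored 13 to 15, 54.5% were bHLH-ER-only. This share was 42.3% at scores of 16 to 18, 35.5% at 19 to 22, 26.6% at 23 to 29 and 28.4% at 30 to 344.

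**Figure D1:**
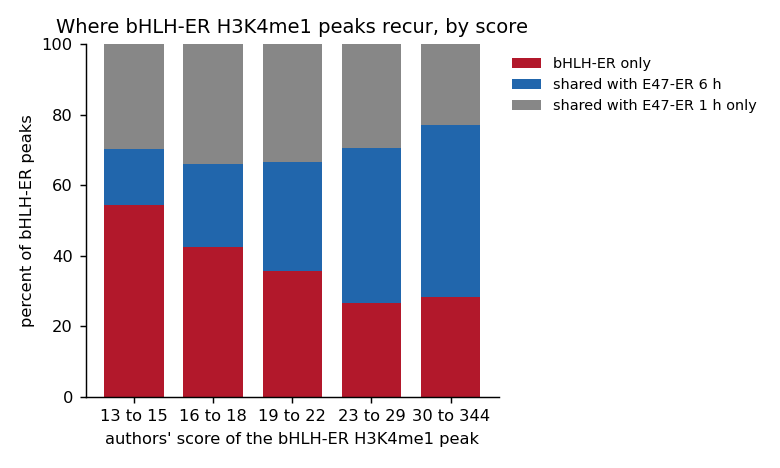
Share of bHLH-ER H3K4me1 peaks that were bHLH-ER-only, shared with the 6 h E47-ER list or shared with the 1 h list only (stacked, percent of peaks) against the authors' score in 5 ranges. The bHLH-ER-only share went from 54.5% in the lowest range to 26.6% and 28.4% in the highest ranges.

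The strongest peaks did not follow this fall. Of the 100 bHLH-ER peaks with the highest scores, 41 were bHLH-ER-only. The count was 178 of the top 500 (35.6%), 330 of the top 1000 and 1362 of the top 5000 (27.2%). Of the top 11169, as many as the 6 h list holds, 3367 (30.1%) were bHLH-ER-only against the whole E47-ER lists. With all 3 lists cut to their top 11169 peaks, 4150 bHLH-ER peaks (37.2%) met neither E47-ER list. Cut in the same way, 3866 peaks of the 1 h E47-ER list (34.6%) and 4791 of the 6 h list (42.9%) met neither of the other lists. At equal list length, the share of peaks found in 1 list only was thus lower with bHLH-ER than in the 6 h E47-ER list and higher than in the 1 h list.

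The spacing of peaks bears on what overlap means here. All H3K4me1 peaks were 1000 bases wide, and only 0.397% of neighbouring bHLH-ER peaks had centres closer than 5 kb (0.188% at 6 h and 0.380% at 1 h with E47-ER), so neighbouring peaks of a list were seldom closer than that. Between the centres of a bHLH-ER-only region and the nearest E47-ER H3K4me1 peak of either time, the median distance was 14.9 kb. It was within 5 kb for 699 regions (11.1%) and within 10 kb for 2181 (34.5%). When edges had to be over 5 kb apart, 5335 regions remained.

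At the border of the rule, the 5 regions just inside lay 0 to 2 bases from an E47-ER peak, and the 5 just outside overlapped one by 2 to 8 bases. Those inside scored 32 (near Clic5), 23 (Stard7), 18 (Mcm3ap), 24 (Rragd) and 25 (Pdcl3). Those outside scored 14 to 17. The regions near Mcm3ap and Rragd each held an E47-ER site at 6 h. Some genes named below had only a region near the border. These were Nfil3, Slc6a13, Ccnd1, Hes1, Oasl2 and Egr2, with centres 1.23 to 1.93 kb from an E47-ER H3K4me1 peak. Kit, A930003A15Rik, Esm1 and Pdgfa each had such a region (1.15 to 1.94 kb) besides others. Such regions leave the set when peaks within 1 kb count as overlapping.

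By chromosome, the bHLH-ER-only share ran from 33.8% on chromosome 16 to 39.8% on chromosome 3, with 48.0% (85 of 177 peaks) on X. Chromosome 7 held 7.26% of all bHLH-ER peaks and 19.5% of the 1000 with the highest scores. It held 17.9% and 17.8% of the top 1000 in the 1 h and 6 h E47-ER lists, 14.9% and 14.0% in A12 cells with bHLH-ER and E47-ER, 8.6% in EBF-/- cells and 4.9% in RAG1-/- cells. Its part in the scores was not tested. Without chromosome 7, 5891 bHLH-ER-only regions remained.

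The 10 regions with the highest scores lay on 5 chromosomes, most of them on chromosome 7. The first was chr7:126160006-126161005, with a score of 95, 0.323 kb from a probe of Spns1, a lysosomal lipid transporter. It overlapped E47-ER sites at 1 and 6 h, E2A in EBF-/- and RAG1-/- cells, an E47-ER site in A12 cells, and H3K4me1, H3K4me2, H3K4me3 and H3 acetylation in RAG1-/- cells. The second, chr1:90092818-90093817 (score 81), was 0.969 kb from Hjurp, the chaperone that loads the centromeric histone, and overlapped no peak of any other list. The third, chr7:98425194-98426193 (78, near Emsy, a partner of BRCA2), overlapped E47-ER at 1 h and H3K4me2 in EBF-/- cells.

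Then came chr7:100817787-100818786 (77), near P2ry6, a nucleotide receptor. It overlapped H3K4me1 in RAG1-/- cells and in A12 cells with either protein. They were followed by chr11:106576611-106577610 (76, near Polg2, a subunit of the mitochondrial DNA polymerase), in no other list, and chr8:125322938-125323937 (76, near Mvd, an enzyme of cholesterol synthesis), with an E47-ER site at 6 h. The region chr4:139839719-139840718 (72, near Arhgef10l, a guanine nucleotide exchange factor), held E47-ER at both times and H3K4me1 in EBF-/- cells. A further 2, on chromosome 7 with scores of 72 and 71, had no named probe within 50 kb and held E47-ER at both times. The last, chr7:99288499-99289498 (70), was 45.2 kb from Gdpd5, a phosphodiesterase.

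Binding of E47-ER itself was measured in E2A-/- cells at 1 and 6 h with an E2A antibody. Binding of bHLH-ER was not analysed here. Of all 17146 bHLH-ER peaks, 8.66% overlapped an E47-ER site at 6 h. Of the bHLH-ER-only regions 436 did (6.9%, interval 6.3 to 7.6), and of the shared peaks 687 (12.0%, 11.2 to 12.8). At 1 h, 16.3% of all bHLH-ER peaks overlapped a site, against 722 bHLH-ER-only regions (11.4%, 10.7 to 12.2) and 1359 shared peaks (23.7%, 22.6 to 24.8). Peaks shared at 1 h only had 7.1% at 6 h and 14.1% at 1 h. Both times found a site in 393 bHLH-ER-only regions, 1 h only in 329 and 6 h only in 43. The mock immunoprecipitation overlapped 3.

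Set side by side within score ranges, the picture depended on the score. In the lowest range, 2.4% of bHLH-ER-only regions (43 of 1817) and 13.6% of shared peaks (71 of 523) overlapped an E47-ER site at 6 h. In the highest range the order was the opposite, with 21.4% of bHLH-ER-only regions (224 of 1048, interval 19.00 to 23.96) against 14.5% of shared peaks (261 of 1796, 12.98 to 16.24) and 16.2% of peaks shared at 1 h only (137 of 848). Between these ranges, the bHLH-ER-only share was 3.7%, 4.1% and 7.2%, and the shared one 10.4%, 9.7% and 10.8%. Scores were not matched inside the highest range, which runs from 30 to 344. bHLH-ER-only regions were 28.4% of its peaks and 41.0% of the top 100, and the part of this in the order was not tested. The highest range was looked at on its own after these shares were seen. At 1 h it gave 31.1% (28.4 to 34.0) against 27.7% (25.7 to 29.8), with intervals that overlap.

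**Figure D2:**
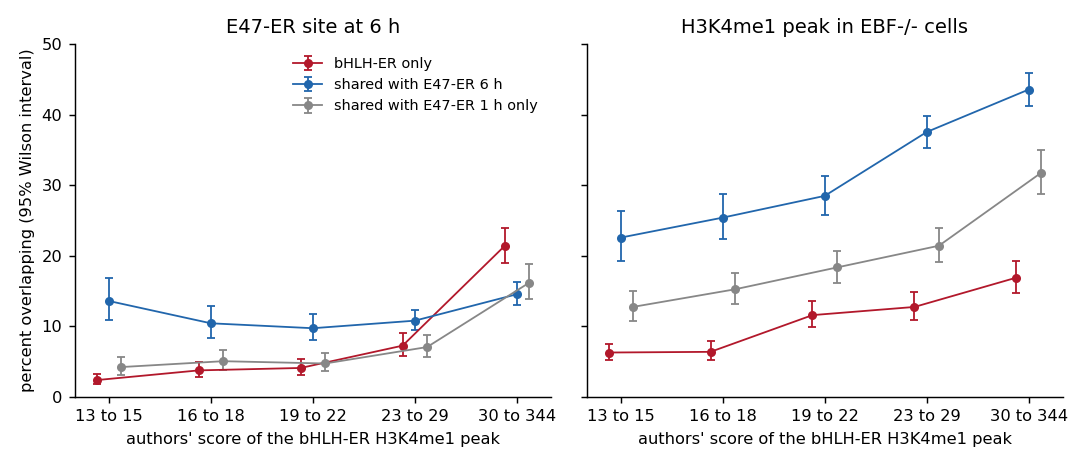
Percent of bHLH-ER H3K4me1 peaks that overlapped an E47-ER site at 6 h (left) or an H3K4me1 peak of EBF-/- cells (right) against the authors' score, with 95% Wilson intervals. bHLH-ER-only regions went from 2.4% to 21.4% with E47-ER and crossed the shared peaks in the highest score range, but stayed below them for H3K4me1 of EBF-/- cells at every score.

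The surroundings of the strong bHLH-ER-only regions were also denser in E47-ER sites. Within 2 kb of the centre, 32.3% of those scoring 30 or more had a 6 h site, against 19.9% of shared peaks of that score. Within 5 kb it was 42.6% (39.6 to 45.6) against 23.5% (21.6 to 25.5). Within 10 kb it was 58.7% (55.7 to 61.6), 36.1% (33.9 to 38.4) for shared peaks and 46.9% (43.6 to 50.3) for peaks shared at 1 h only. At 1 h, the corresponding shares within 10 kb were 75.3%, 57.0% and 64.6%. Over all scores the sets were close, with 27.6% of bHLH-ER-only regions and 29.4% of shared peaks within 10 kb of a 6 h site. Among the 224 strong regions that held a site, 11 (4.9%) had an E47-ER H3K4me1 peak within 5 kb. Of all 1048 strong regions, 84 (8.0%) did. The rule excluded overlap with such peaks, so these shares test nothing.

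Sites inside bHLH-ER-only regions scored a median of 10 in the authors' 6 h list, against 9 inside shared peaks, and lay a median of 210 and 192 bases from the peak centre. Of the 3148 E47-ER sites at 6 h with scores of 15 to 107, 135 (4.3%) fell in a bHLH-ER-only region and 128 (4.1%) in a shared peak. Of the 5372 sites with scores of 6 or 7, 121 (2.3%) and 228 (4.2%) did. Few E47-ER sites were thus in H3K4me1 peaks of either kind.

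H3K4me1 in other cells met the bHLH-ER-only regions less often than the rest of the list. In EBF-/- pre-pro-B cells, 21.2% of all bHLH-ER peaks had an H3K4me1 peak. The share was 10.1% of bHLH-ER-only regions (637, interval 9.4 to 10.9), 34.9% of shared peaks (33.7 to 36.2) and 19.5% of peaks shared at 1 h only. In the highest score range it was still 16.9% (14.7 to 19.3) against 43.5% (41.3 to 45.8). In RAG1-/- pro-B cells, 25.1% of all bHLH-ER peaks had an H3K4me1 peak, with 19.7% of bHLH-ER-only regions (1246, 18.8 to 20.7) and 32.3% of shared peaks (31.1 to 33.6). The EBF-/- list held 7544 peaks and the RAG1-/- list 23054. As shares of those lists, the overlaps with bHLH-ER-only regions were 8.44% and 5.405%, and those with shared peaks 26.6% and 8.05%.

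Taking both genotypes, 237 bHLH-ER-only regions carried H3K4me1 in EBF-/- and in RAG1-/- cells, 400 in EBF-/- cells only, 1009 in RAG1-/- cells only and 4671 in neither. H3K4me2 was more widely listed. It met 29.6% of bHLH-ER-only regions in EBF-/- cells against 55.4% of shared peaks, and 21.0% against 32.8% in RAG1-/- cells. In the highest score range of bHLH-ER-only regions, H3K4me2 of EBF-/- cells met 52.5% (550 of 1048), beside 16.9% for H3K4me1. Among peaks of that range without a 6 h E47-ER site, it was 47.6% beside 15.5% for bHLH-ER-only regions, and 65.9% beside 42.9% for shared peaks. The EBF-/- lists of these marks held 27025 and 7544 peaks.

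Marks of promoters did not follow that order. H3K4me3 of EBF-/- cells met 6.0% of bHLH-ER-only regions (5.4 to 6.6) and 3.9% of shared peaks (3.5 to 4.5). In RAG1-/- cells it met 8.7% and 7.9%, with intervals of 8.1 to 9.4 and 7.2 to 8.6. H3 acetylation met 11.4% and 17.4% in EBF-/- cells, and 9.0% and 10.0% in RAG1-/- cells. H3K27me3, the Polycomb mark, met 11 bHLH-ER-only regions in EBF-/- cells and 26 in RAG1-/- cells.

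Factors mapped in RAG1-/- cells met few bHLH-ER peaks of any set. E2A met 5.0% of bHLH-ER-only regions and 9.4% of shared peaks, EBF1 0.6% and 0.7%, and FOXO1 0.7% and 0.8%. CTCF, the insulator protein, met 8.3% and 8.4%. Of all bHLH-ER peaks, E2A met 6.6%, EBF1 0.7%, FOXO1 0.8% and CTCF 8.5%. The EBF1 and FOXO1 lists held 1402 and 1575 peaks. In EBF-/- cells, E2A met 2.2% of bHLH-ER-only regions, 4.5% of shared peaks and 3.0% of all bHLH-ER peaks. Of the 436 bHLH-ER-only regions with an E47-ER site at 6 h, 61.9% had H3K4me2 in EBF-/- cells, 32.3% had E2A in RAG1-/- cells and 22.9% had E2A in EBF-/- cells. Of the 5881 without one it was 27.2%, 2.96% and 0.697%.

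**Figure D3:**
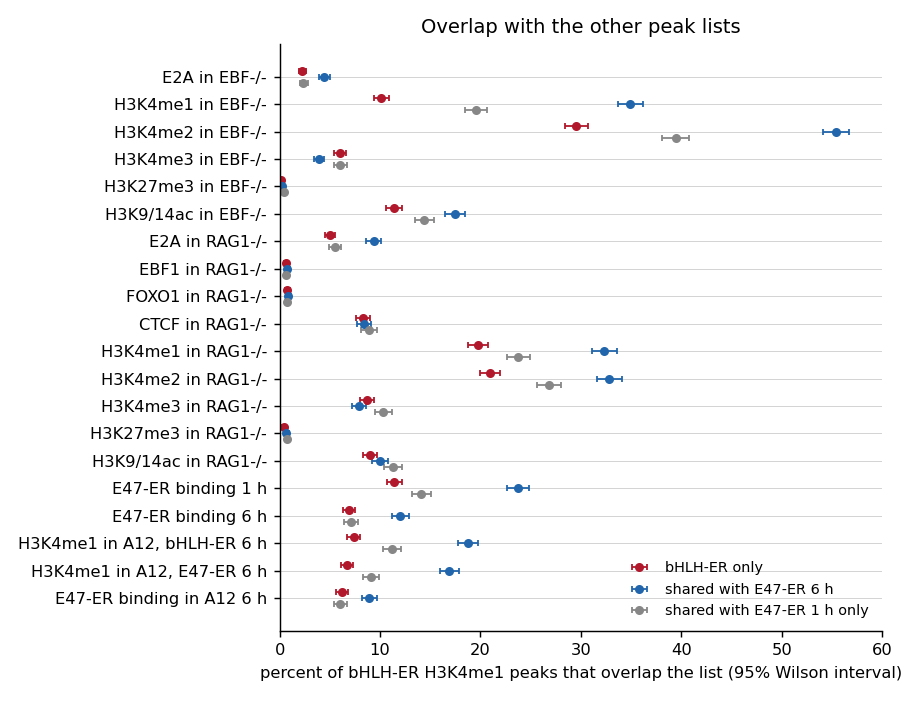
Percent of bHLH-ER H3K4me1 peaks in each of 3 sets that overlapped each other peak list, with 95% Wilson intervals. bHLH-ER-only regions lie below shared peaks for H3K4me1, H3K4me2 and E47-ER, and above them for H3K4me3 of EBF-/- cells (6.0% against 3.9%). Peaks shared at 1 h only had 6.0% for that last mark too.

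The A12 line offered the same pair of proteins in T cells. Of all bHLH-ER peaks of E2A-/- cells, 12.3% overlapped an H3K4me1 peak of A12 cells with bHLH-ER, against 7.4% of bHLH-ER-only regions (465, interval 6.7 to 8.0) and 18.7% of shared peaks (17.8 to 19.8). With E47-ER in A12 cells it was 6.7% (424) and 16.9%. Of the bHLH-ER-only regions, 220 were in both A12 lists, 245 in the bHLH-ER list only and 204 in the E47-ER list only. A region listed with bHLH-ER alone in pre-pro-B cells was thus listed about as often with E47-ER as with bHLH-ER in A12 cells. E47-ER sites of A12 cells met 390 (6.2%), and 224 of the 436 regions with a 6 h site in E2A-/- cells (51.4%) also had one in A12 cells. For shared peaks this was 43.5%. In all, 2805 bHLH-ER-only regions (44.4%) overlapped no peak of any list outside the 3 H3K4me1 lists of E2A-/- cells, against 17.8% of shared peaks. For scores of 30 or more it was 22.1% against 11.9%.

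A run of bHLH-ER-only regions lay at Rps6ka1, which encodes the RSK1 kinase downstream of ERK. Its probes were nearest to 6 regions between chr4:133092357-133093356 and chr4:133164046-133165045, over 72.7 kb, and no other bHLH-ER peak had them as its nearest probes. In genomic order the regions scored 50, 22, 45, 44, 39 and 33. Of E47-ER H3K4me1 peaks, 0 lay between the first and the last. Sites of E47-ER at 6 h lay 1.88, 2.04 and 2.36 kb from the centres of those that scored 45, 44 and 39, with scores of 22, 8 and 9, and none overlapped a region. H3K4me2 of EBF-/- cells overlapped 1 of the 6 and H3K4me1 of EBF-/- cells another.

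**Figure D4:**
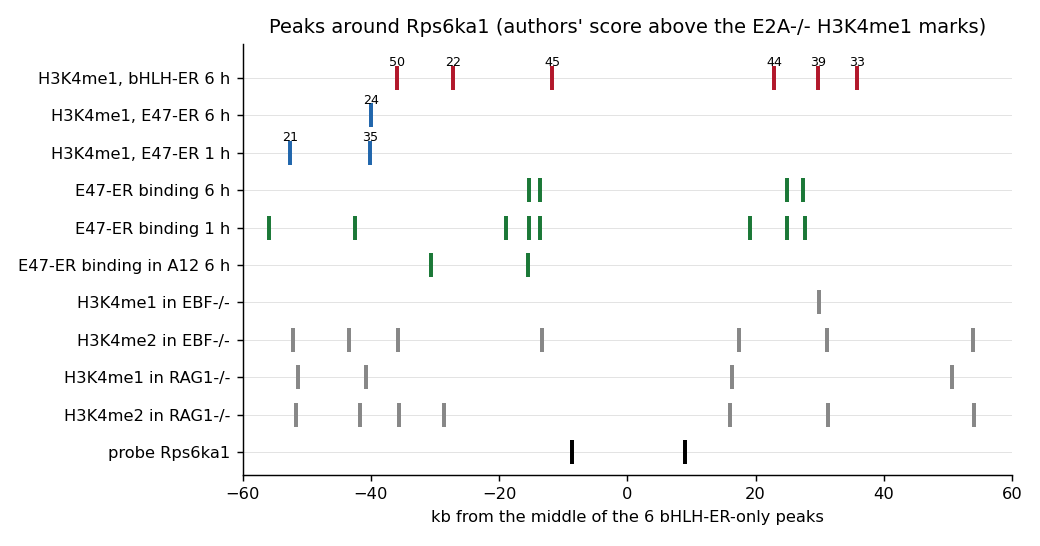
Peak centres of selected lists around Rps6ka1, in kb from the middle of the 6 bHLH-ER-only regions, 1 row per list, with the authors' score above the H3K4me1 marks of E2A-/- cells. The 6 bHLH-ER marks span 72.7 kb with no E47-ER H3K4me1 mark among them, and E47-ER sites at 6 h lie beside 3 of them.

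Gene expression was compared between untreated genotypes, not between cells with bHLH-ER and E47-ER. Arrays of cells with either protein were not analysed here. Each of 3 genotypes had 2 samples, E2A-/- pre-pro-B, EBF-/- pre-pro-B and RAG1-/- pro-B, and nothing in the labels says that they were separate animals or cultures, so the p-values measure the spread between these samples. In these bulk samples, fewer cells of a type and less RNA per cell cannot be told apart. A gene was assigned to a region when its probe was the nearest within 50 kb by the mm8 positions of the array design. Of the regions, 4771 (75.5%) had such a gene. They pointed to 3877 genes, of which 3012 passed the filter on dim probes and were tested. A gene was called when limma's adjusted p, over all 12273 genes tested, was under 0.05. On the log2 scale, the lowest signal well above background was 3.92 and 6.86 (E2A-/-), 6.25 and 5.21 (EBF-/-), then 4.71 and 4.74 (RAG1-/-). Readings below these values were not well above background, so differences that rest on them have an uncertain size.

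The targeted genes were looked at first. On the log2 intensity scale, the E2A-/- samples read 10.80 and 9.44 for Tcf3, below 13.41 and 13.39 (EBF-/-) and 14.99 and 14.70 (RAG1-/-). The samples labelled EBF-/- read 10.86 and 10.89 for Ebf1, with 6.94 and 5.39 in E2A-/- samples, and those labelled RAG1-/- read 10.54 and 11.12 for Rag1, with 5.58 and 4.41. Whether these probes lie in the deleted parts was not analysed here, so they check neither label. Of 9 pro-B markers, 8 were tested. For 6 pre-pro-B and progenitor markers, the medians were 13.8 and 13.9 in either pre-pro-B genotype, and 11.6 and 12.2 in RAG1-/- samples. The pro-B median was 9.85 in E2A-/- replicate 1 and 6.00 in replicate 2, against 14.7 and 14.9 in RAG1-/- samples. E2A-/- replicate 1 shared its array with RAG1-/- replicate 1. The median of 4 myeloid markers was 13.5 and 13.8 (E2A-/-), 10.9 and 10.5 (EBF-/-), then 9.20 and 11.2 (RAG1-/-). The part of these marker levels in the results below was not tested.

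As a set, genes near bHLH-ER-only regions moved much as all genes did. In EBF-/- against E2A-/- cells, limma called 421 of 3012 higher (14.0%) and 379 lower (12.6%), against 12.8% and 11.8% of all genes. In RAG1-/- against E2A-/- cells it called 693 higher (23.0%) and 759 lower (25.2%), against 23.2% and 23.4%. Median log2 differences were 0.00 in both comparisons, beside -0.01 and 0.03 over all genes. Genes near shared peaks were called 350 higher and 388 lower of 2725 in the first comparison, and 583 and 749 in the second. A gene can be in both sets. Of the 3012 genes, 1590 had no bHLH-ER peak other than bHLH-ER-only regions. Of these, 14.2% were higher and 11.3% lower in the first comparison, and 24.2% and 23.5% in the second. Both comparisons share the E2A-/- samples. Median centring in place of quantile normalization gave 233 higher and 410 lower in the first comparison and 467 and 657 in the second, with an infinite prior, so that all genes of like intensity shared 1 spread. The first comparison had 800 calls in all. Leaving out EBF-/- replicate 1 or 2 gave 137 or 99, E2A-/- replicate 1 or 2 gave 322 or 314, and leaving out RAG1-/- replicate 1 or 2 gave 1359 or 1362. In the second comparison, 1452 calls became 854 without E2A-/- replicate 2.

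Regions with an E47-ER site at 6 h pointed to 272 tested genes. EBF-/- cells had 51 of these higher (18.8%) and 24 lower (8.8%), and RAG1-/- cells had 66 (24.3%) and 57 (21.0%). Regions that scored 30 or more pointed to 653 tested genes, with 112 higher (17.2%) and 94 lower (14.4%) in EBF-/- cells, and 149 (22.8%) and 198 (30.3%) in RAG1-/- cells. Whether these shares differ from those of all genes was not tested.

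Among the genes of the 10 strongest regions, P2ry6 and Arhgef10l differed most. P2ry6 read 10.29 and 10.54 (E2A-/-), 5.80 and 5.63 (EBF-/-), then 6.15 and 5.29 (RAG1-/-), with EBF-/- replicate 1 not well above background. The E2A-/- samples stood above all others, by -4.72 ± 0.32 (log2, SE, n = 2, limma adjusted p = 0.0033) in EBF-/- and -4.70 (0.0011) in RAG1-/- cells. Arhgef10l read 11.24 and 11.52, then 7.92 and 7.80, then 8.01 and 7.15. Its differences were -3.53 (limma adjusted p = 0.0037) and -3.81 (0.0011). Gdpd5 read 9.18 and 9.26, then 6.14 and 5.52, then 6.10 and 5.28, and was lower by -3.40 and -3.54 (limma adjusted p = 0.009 and 0.0037). For Gdpd5 too, EBF-/- replicate 1 was not well above background. Without EBF-/- replicate 2 the difference in EBF-/- cells was -2.87 and its call was lost.

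Hjurp was higher in RAG1-/- cells, with 13.58 and 13.06 against 11.90 in both E2A-/- samples (log2 1.41, limma adjusted p = 0.0034). Polg2 was lower there by -0.92 (0.019), a call lost without E2A-/- replicate 2 (adjusted p = 0.11). Spns1 read 10.83 and 11.11 (E2A-/-), 10.31 and 10.61 (EBF-/-), then 11.14 and 11.03 (RAG1-/-). It was lower in EBF-/- cells by -0.51 (limma adjusted p = 0.03), which 6 alternatives lost, with adjusted p up to 0.27. Emsy was 0.48 higher in RAG1-/- cells (0.037), lost under 7 alternatives, and Mvd was called in neither comparison. Of the genes of the strongest regions, some were thus higher, some lower and one called in neither comparison.

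Among the genes with the most regions were Prim2 and Rps6ka1 with 6 each, Aff3 and H2az1 with 5, and Babam2, Pmepa1, Pdgfa, Abr and Nfatc2 with 4. Probes of H2az1 lie at loci on chromosomes 3 and 6, so its regions may belong to either. Of the 3877 genes, 3147 had 1 region. Rps6ka1 read 12.42 and 12.55 (E2A-/-), 12.28 and 12.22 (EBF-/-), then 10.31 and 10.52 (RAG1-/-). The RAG1-/- samples lay below the rest, with -2.07 ± 0.12 (limma adjusted p = 0.00074), while EBF-/- cells differed by -0.23 (0.22).

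Pmepa1, which restrains TGF-β signalling, had 4 regions, all with H3K4me2 in EBF-/- cells and 3 with E47-ER at 6 h. The strongest, chr2:172907001-172908000 (score 46), covered its probe. It read 5.67 and 4.67 (E2A-/-), 5.52 and 5.71 (EBF-/-), then 8.36 and 8.37 (RAG1-/-), 3.20 higher in the last (limma adjusted p = 0.0049). E2A-/- replicate 2 and EBF-/- replicate 1 were not well above background for Pmepa1, so this size is uncertain. Pdgfa, a growth factor for mesenchymal cells, had 4 regions and 1 bound. It read 9.88 and 9.87, then 12.59 and 12.46, then 8.11 and 8.07, so the 3 genotypes did not overlap. It was 2.65 higher in EBF-/- (limma adjusted p = 0.002) and lower by -1.78 in RAG1-/- cells (0.00084). Beside it, its receptor Pdgfrb, a stromal marker without a region, read 12.96 and 12.75 in EBF-/- against 7.72 and 8.06 in E2A-/- samples. Of the 3 stromal markers tested, 1 was called higher and 1 lower in EBF-/- cells. The stromal marker Col1a2 stayed between 6.30 and 7.69 in all 6 samples, and the part of stromal cells was not tested.

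Prim2, a subunit of DNA primase, was 0.64 higher in RAG1-/- cells (limma adjusted p = 0.026) and lost this under 5 alternatives. Abr was lower there by -0.90 (0.0028). Nfatc2, a calcium-regulated factor, was called in neither comparison.

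**Figure D5:**
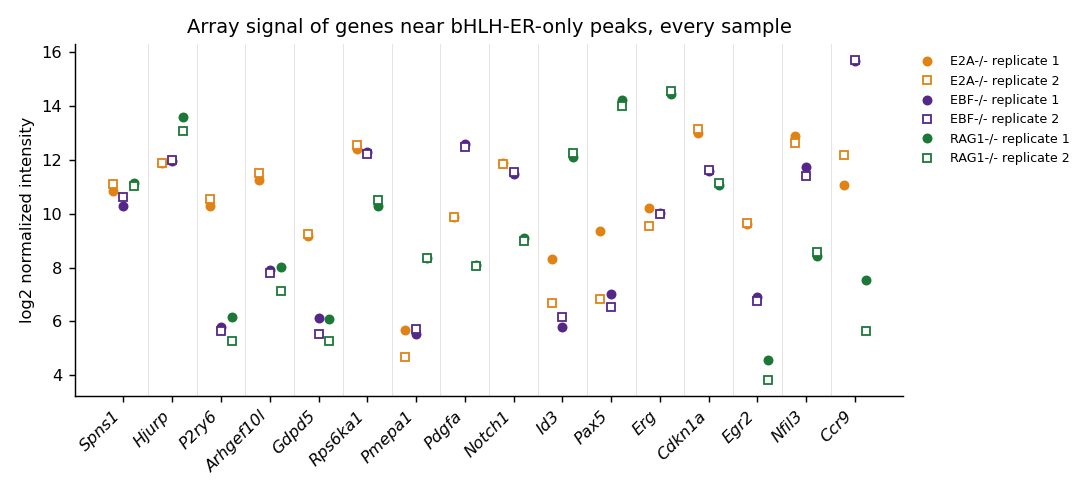
Log2 normalized intensity of 16 genes near bHLH-ER-only regions in every array sample (circles replicate 1, squares replicate 2). P2ry6 and Arhgef10l are high in both E2A-/- samples, Rps6ka1 and Notch1 are low in both RAG1-/- samples, and Id3, Pax5 and Erg are high in both RAG1-/- samples. Levels of different genes come from different probes and are not comparable.

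E proteins, their Id inhibitors and Notch genes formed a list of 16, of which 7 had a region (10 regions, 2 bound) and 6 of these were tested. In RAG1-/- cells 4 were higher and 2 lower (median log2 2.23, beside 0.03 over all genes), and in EBF-/- cells 0 were higher and 1, Bcl6, lower (median -0.41). Of the whole list, 14 were tested, with 8 against 5 (higher against lower) in RAG1-/- and 4 against 2 in EBF-/- cells. Notch1 had the region chr2:26280195-26281194 (score 51), 0.067 kb from its probe, with E47-ER at 1 and 6 h, E47-ER in A12 cells, and H3K4me1 and H3K4me2 in RAG1-/- cells. It read 11.89 and 11.85 (E2A-/-), 11.49 and 11.55 (EBF-/-), then 9.09 and 8.99 (RAG1-/-). The RAG1-/- samples stood apart, with -2.83 ± 0.10 (limma adjusted p = 0.00035).

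Id3, the E protein inhibitor, had 3 regions 20.4 to 42.8 kb from its probe, and chr4:135384196-135385195 (score 25) held E47-ER at both times and E2A in EBF-/- and RAG1-/- cells. It read 8.33 and 6.68 (E2A-/-), 5.79 and 6.17 (EBF-/-), then 12.11 and 12.27 (RAG1-/-), 4.70 ± 0.53 higher in the last (limma adjusted p = 0.0034). E2A-/- replicate 2 was not well above background. Hes5 and Hes1, Notch targets, were higher in RAG1-/- cells too. Hes5 went from 8.15 and 7.61 to 11.67 and 12.06 (limma adjusted p = 0.00056). Hes1 was at least 6.06-fold higher, since no E2A-/- sample was well above background (limma adjusted p = 0.0058), and its call was lost without either RAG1-/- replicate (0.061). A bound of this kind sets the brighter samples against the dimmest signal well above background on each array. Tcf12, which encodes the E protein HEB, was 0.47 higher (0.016), a call lost under 5 alternatives.

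B-lineage transcription factors were a list of 18, all tested, and 7 had a region (9 regions, none with E47-ER at 6 h). All 7 were higher in RAG1-/- cells (median log2 1.99), as were 15 of the 18, with 2 lower. The calls of Runx1, Tcf12 and Spib were lost under 5, 5 and 2 alternatives. In EBF-/- cells 2 of the 7 were higher, and 4 of the 18, with 1 lower. The 2 were Myb and Runx1, whose calls were lost under 3 and 4 alternatives (limma adjusted p up to 0.076 and 0.13). Pax5, which fixes B cell identity, had chr4:44558428-44559427 (score 15) across its probe. It read 9.37 and 6.83 (E2A-/-), 7.03 and 6.54 (EBF-/-), then 14.22 and 14.01 (RAG1-/-), 6.02 higher (limma adjusted p = 0.0036). E2A-/- replicate 2 was not well above background for Pax5, so this size is uncertain. Bach2, a repressor of plasma cell fate, had a region of score 38 with H3K4me1 in EBF-/- and RAG1-/- cells. It was 3.32 higher, with 15.05 and 14.12 against 11.93 and 10.60 (limma adjusted p = 0.0099). Spib, an ETS factor, read 11.50 and 7.90 in the E2A-/- samples and 14.93 and 14.34 in the RAG1-/- samples, and its call (limma adjusted p = 0.024) was lost without RAG1-/- replicate 1 (0.073).

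Pre-B receptor and B cell signalling genes with a region were Cd79a, Btk, Bank1 and Dntt, of 15 in the list, and 14 of these were tested. Of the 4, RAG1-/- cells had 3 higher and 1 lower, and EBF-/- cells 1 higher and 1 lower. Over the list it was 10 higher and 1 lower, and 3 and 2. Dntt, the terminal transferase of recombining lymphocytes, read 9.003 and 8.38 (E2A-/-), 12.60 and 12.51 (EBF-/-), then 15.12 and 16.46 (RAG1-/-). The order was the same in every sample, with differences of 3.88 (limma adjusted p = 0.004) and 7.11 (0.00048). Cd79a, a chain of the B cell receptor, had a region of score 44 with E47-ER at 1 h and CTCF, and was 5.98 higher in RAG1-/- cells (limma adjusted p = 0.0051). Bank1, a signalling adaptor, was lower by -4.11 there (0.0012). The RAG1-/- call of Btk, a kinase of B cell receptor signalling, was lost under 3 alternatives and the EBF-/- call of Bank1 under 4 (limma adjusted p up to 0.16 and 0.099).

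Progenitor and cytokine receptor genes with a region were Kit, Meis1, Erg and Notch1, of 14, with 13 tested. In RAG1-/- cells 1 was higher and 3 lower (median -2.77), and in EBF-/- cells none was called. The list held 2 higher and 11 lower genes in RAG1-/-, and 3 and 3 in EBF-/- cells. Erg, an ETS factor of stem cells, was the one that was higher, with 14.43 and 14.57 against 10.21 and 9.56 (log2 4.62, limma adjusted p = 0.00039), and its region held E47-ER at 1 h only. Meis1, a homeobox factor with 3 regions, went from 10.15 and 10.16 to 6.71 and 7.64 (limma adjusted p = 0.0025). Kit, the SCF receptor, was lower by -2.71 (0.041), a call lost without E2A-/- replicate 2 (0.17) and with no filter on dim probes (0.093).

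Cell cycle genes were a list of 15, all tested, and 7 had a region. In EBF-/- cells 1 of the 7 was higher and 4 lower, and in RAG1-/- cells 0 and 5 (median -1.69). Of the list, 1 was higher and 5 lower in EBF-/- cells, and 5 and 5 in RAG1-/- cells. Cdkn1a, the inhibitor p21, had regions of score 40 and 27, and the second held E47-ER at 1 h and E2A in RAG1-/- cells. It read 13.02 and 13.14 (E2A-/-), 11.59 and 11.61 (EBF-/-), then 11.08 and 11.16 (RAG1-/-). The E2A-/- samples were highest, by -1.48 (limma adjusted p = 0.0029) and -1.96 (0.00055). Ccnd2, a D cyclin, had the one region of the list bound at 6 h and was lower by -1.42 and -0.96 (limma adjusted p = 0.0032 and 0.0024). Ccnd1, another D cyclin, was lower by -4.88 and -4.89 (0.01 and 0.0047), and Mycn, a growth-promoting factor, was 1.98 higher in EBF-/- cells (0.0036). The EBF-/- call of Ccne1, a cyclin, was lost under 4 alternatives (limma adjusted p up to 0.14).

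Immediate early genes were a list of 13, of which 5 had a region (6 regions, none bound at 6 h) and 4 of these were tested. Regions near Egr2, Egr3 and Jun held E47-ER at 1 h. All 4 were lower in RAG1-/- cells (median -1.77) and 3 in EBF-/- cells. Both calls of Dusp1, a MAP kinase phosphatase, were lost under 5 alternatives, and the EBF-/- call of Egr2 under 2. Of the 12 tested in the list, 11 were lower in RAG1-/- cells and 0 higher, with 5 lower and 1 higher in EBF-/- cells. Egr2, a zinc-finger factor induced by antigen receptors, read 9.60 and 9.65 (E2A-/-), 6.92 and 6.78 (EBF-/-), then 4.58 and 3.83 (RAG1-/-). Neither RAG1-/- sample was well above background, so it was at least 29.95-fold lower there (limma adjusted p = 0.0008). Jun, an AP-1 subunit, had a region of score 34 at 0.985 kb from its probe and was lower by -2.42 in EBF-/- cells (0.0028). Its difference of -0.997 in RAG1-/- cells (0.0074) was lost without E2A-/- replicate 2. Fosb was lower by -2.48 in RAG1-/- cells (0.0041).

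Chemokine receptor and homing genes with a region were Ccr9, Cxcr5, S1pr1, Itga6 and Selplg, of 12 in the list, all tested. In EBF-/- cells 3 were higher and 1 lower, and in RAG1-/- cells 2 and 3. The list held 3 higher and 2 lower genes in EBF-/-, and 3 and 8 in RAG1-/- cells. Ccr9, a receptor of thymus-seeding and gut-homing cells, had a region of score 38 with an E47-ER site in A12 cells. It read 11.08 and 12.19 (E2A-/-), 15.68 and 15.71 (EBF-/-), then 7.53 and 5.65 (RAG1-/-). The genotypes did not overlap, with 4.04 (limma adjusted p = 0.0076) and -5.07 (0.0019). Cxcr5 and S1pr1, receptors for follicle homing and for exit from tissue, were 3.66 and 3.71 higher in RAG1-/- cells (limma adjusted p = 0.00057 and 0.00089). The EBF-/- calls of Cxcr5, S1pr1 and Itga6, an integrin chain, were lost under 3, 5 and 4 alternatives (limma adjusted p up to 0.13, 0.27 and 0.1). In RAG1-/- cells those of Itga6 and Selplg, a selectin ligand, were lost under 5 and 1 (up to 0.13 and 0.1).

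T-lineage genes with a region were Cd3d, Tcf7, Cd5, Il2ra and Ccr9, of 17, with 13 of the list tested. Of the 4 tested ones, EBF-/- cells had 2 higher and 2 lower, and RAG1-/- cells 1 and 3, against 7 and 2, and 4 and 6, of the list. Tcf7, which encodes the T cell factor TCF1, was called higher in EBF-/- cells (limma adjusted p = 0.0038), with 9.23 and 9.19. Neither E2A-/- sample was well above background on this probe, so no size is given. Both calls of Il2ra, the alpha chain of the IL-2 receptor, were lost, in EBF-/- cells under 6 alternatives and in RAG1-/- cells under 10, and the EBF-/- call of Cd5, a surface glycoprotein, under 4 (limma adjusted p up to 0.19, 0.17 and 0.16). Of 4 T markers tested, Lck was also higher (13.96 and 13.80 against 9.81 and 9.90), and Cd3e and Cd4 were not called. NK and cytotoxic genes with a region were Il2rb and Nfil3, of 12, with 8 tested. Il2rb, a cytokine receptor chain, was 4.202 higher in EBF-/- cells (limma adjusted p = 0.019, lost under 4 alternatives). Of the 2 NK markers tested, Klrd1 and Gzma, 1 was called higher in EBF-/- cells. Their median was 8.04 and 8.98 (E2A-/-), then 10.9 in both EBF-/- samples. Gzma read 8.57 and 8.56 in EBF-/- samples, against 3.22 and 5.13 in E2A-/- samples, which were not well above background. The part of NK cells was not tested. Over the list of NK and cytotoxic genes, EBF-/- cells had 5 higher and 1 lower, and RAG1-/- cells 1 and 4. Nfil3, a factor of NK cell development, had a region of score 49, 1.23 kb from an E47-ER H3K4me1 peak. It read 12.87 and 12.62 in E2A-/- and 8.42 and 8.56 in RAG1-/- samples, a difference of -4.26 (limma adjusted p = 0.00023). Of 14 myeloid genes, 12 were tested and 1, Csf2ra, had a region. It was 0.77 and 1.07 higher (limma adjusted p = 0.0066 and 0.0013), and the first call was lost under 4 alternatives (up to 0.17), while the list had 1 higher and 3 lower, and 1 and 7.

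The largest differences near bHLH-ER-only regions were read from genes dim in one genotype. In EBF-/- against E2A-/- cells, Ptprf, a receptor phosphatase, went from 5.37 and 7.51 to 13.78 and 13.66 (log2 7.30, limma adjusted p = 0.0049), and Esm1, a secreted proteoglycan, from 5.79 and 6.02 to 12.36 and 12.07 (6.31, 0.002). Atp1b1, a sodium pump subunit, was 5.25 higher there and 10.15 higher in RAG1-/- cells (0.006 and 0.00064). Rxra, the retinoid receptor, was 5.21 higher (0.0034). Among genes lower in EBF-/- cells, Gpnmb was at least 23.95-fold, Clec4n at least 20.53-fold and Tlr6 at least 7.24-fold lower (limma adjusted p = 0.0048, 0.0028 and 0.0029). These are genes of macrophages and dendritic cells. The myeloid marker Csf1r read 12.04 and 12.24 in E2A-/- against 7.90 and 4.99 in EBF-/- samples. Of the 4 myeloid markers tested, 1 was called lower in EBF-/- cells and 0 higher, and the part of myeloid cells was not tested. Slc6a13, a transporter of GABA, was lower by -5.02 (0.0028).

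Other large differences of EBF-/- cells kept their direction but lost their call with 1 EBF-/- sample. A930003A15Rik, P2ry10, Pdcd1 and Smoc1 did so without either EBF-/- replicate, with limma adjusted p of 0.053 to 0.12, and Cxcl10 without EBF-/- replicate 2 (0.051). Pdcd1 also lost it with no filter on dim probes (0.054).

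In RAG1-/- cells, Sh2d1b1, an adaptor of NK cell receptors, was at least 55.92-fold lower than in E2A-/- cells, with 10.59 and 10.47 in the latter and neither RAG1-/- sample well above background (limma adjusted p = 0.00028). Its region, chr1:172119364-172120363 (score 41), covered its probe. Itga8, an integrin chain, was at least 60.81-fold and Trim63 at least 54.78-fold lower (0.00035 and 0.0013). Siglech, a receptor of plasmacytoid dendritic cells, had a region of score 42 with E47-ER at both times and E2A in EBF-/- cells. It read 10.58 and 10.53 against 5.49 and 2.93 (limma adjusted p = 0.0042). Mx1 and Oasl2, interferon-induced genes, were lower by -6.77 and -6.39 (0.002 and 0.0038), Rab7b by -6.31 (0.00049) and Rgs1, a brake on chemokine signalling, by -6.17 (0.00035).

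Among genes higher in RAG1-/- cells, Tnfrsf19, a TNF receptor family member, went from 5.11 and 3.04 to 11.52 and 11.63 (limma adjusted p = 0.0014). Vat1l went from 6.37 and 3.41 to 11.45 and 12.19 (0.0034), and 4930523C07Rik, whose region held E47-ER at 6 h, was 6.79 higher (0.0037). Arl5c, Bst1 and Edaradd were 8.12, 7.82 and 7.54 higher, but their E2A-/- samples differed, with 10.97 and 3.37 for Arl5c, 9.54 and 3.35 for Bst1, and 7.45 and 3.00 for Edaradd. The first value of each is of the E2A-/- sample with the higher pro-B marker median. Without RAG1-/- replicate 1 all 3 calls were lost (adjusted p = 0.064 to 0.14).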

How the data were processed

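The authors' deposited ChIP files are peak lists with a whole-number score per peak, on build mm8 and made with HOMER per the submitters' processing notes. Their aligner, threshold and depth are not given in the sources used here. Array intensity values were deposited as scanner output, already background-subtracted and dye-normalized within each array, per the file headers (Agilent software, version 9.5.3.1).

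Peaks overlapped when they shared at least 1 base (Python 3.11.15, pandas 2.3.3), with 95% Wilson intervals from scipy 1.17.1. The 5 score ranges hold like numbers of bHLH-ER peaks, as near as ties allow. The 6 array samples came from 4 two-colour arrays. Each channel's log2 processed signal was quantile-normalized. A probe was kept where both samples of some genotype were well above background (22132 of 41174), and the brightest probe stood for each of 12273 genes named through RefSeq. limma 3.58.1 (R 4.3.3) fitted genotype and dye over all 6 samples with array as a random block (correlation -0.0427), with Benjamini-Hochberg adjustment. The residual degrees of freedom were 2 and the prior 2.50. The overlap and array code was tested on simulated data.

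Named genes are the 10 with most regions, those of the 10 strongest regions, the 8 largest called rises and falls per comparison, members of fixed lists with a region, and cell type markers; 1 gene that the rule names is not reported here. The regions, lists and rules were chosen with earlier results of these data known. Alternatives covered overlap, score, list length, distance, chromosome 7, normalization, dim probes, dye, blocks, probes per gene, gene window and each sample left out.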

Additional observations from a re-analysis of the deposited data

How the results depend on the processing

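The number of bHLH-ER-only regions (6317) was 7158 when 50% of a peak had to be covered, 5972 with peaks within 1 kb counted as overlapping, 2439 in the higher-scoring part of the list (50%), 4150 with lists cut to the shortest and 11410 against the 6 h E47-ER list only. In the order 1 kb, higher scores and cut lists, the share with an E47-ER site at 6 h (6.9%) was 10.4%, 12.8% and 8.9%, and at 1 h (11.4%) it was 17.4%, 19.9% and 14.6%, with 12.6% against the 6 h list only. H3K4me1 of EBF-/- cells (10.1%) gave 14.4% at higher scores, 14.3% with cut lists and 14.3% against the 6 h list only. H3K4me1 of RAG1-/- cells (19.7%) gave 15.4% with 50% overlap, then in the same order 23.4%, 25.8% and 24.3%, and, against the 6 h list only, 21.5%. H3K4me1 of A12 cells with bHLH-ER (7.4%) gave 6.3% with 50% overlap, 8.4% within 1 kb, 8.2% with cut lists and 9.1% against the 6 h list only. At scores of 30 and over, the share with a 6 h site was 30.3% within 1 kb (21.4% as reported), and for shared peaks 19.5% within 1 kb and 12.3% with 50% overlap (14.5%). The distance of 5 kb, chromosome 7 and this score range were added as alternatives after seeing the data. Of the 800 genes called in EBF-/- cells, regions of higher score gave 380, no filter on dim probes 517 and the replicate block 1322, and leaving out single samples gave 99 to 1362. For the 1452 genes called in RAG1-/- cells these were 702 at higher scores and 854 to 1665 with single samples left out, and the replicate block gave 1824. Deviations of same-numbered samples correlated by -0.398 (E2A-/- with EBF-/-), 0.164 and 0.0096. Dye and shared arrays also differ between the replicates, so these values cannot tell whether the replicate numbers pair the samples. Median centring moved the median log2 difference of all genes by -0.20 in EBF-/- cells and the share of higher calls near bHLH-ER-only regions from 52.6% to 36.2%. Where a sample is left out, the lone sample is assumed to vary like the other genotypes. Of 121 called differences of named genes, 75 kept their call under every alternative and 91 under every one other than leaving out a sample. A sign changed for 3 uncalled differences in EBF-/- cells, which E2A-/- replicates 1 and 2 placed on opposite sides. Without replicate 1 and without replicate 2, Arl5c was 1.89 and -6.12, Bst1 2.85 and -3.41, and Spib 2.87 and -1.14. The cause was not tested. With 1 ChIP library per condition and unknown depth, an absent peak may lie below the authors' threshold.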
